A study of Homo sapiens with 6 samples.

Results

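Eukaryotic translation initiation factors are the proteins that bring the ribosome, the initiator tRNA and an mRNA together at the start codon. The factor eIF2 carries the initiator tRNA in its GTP-bound form and is recharged by eIF2B. The multi-subunit scaffold eIF3 binds the small ribosomal subunit, and eIF4F, made of the cap-binding protein eIF4E, the helicase eIF4A and the scaffold eIF4G, recruits the mRNA. Hypophosphorylated 4E-BP proteins hold eIF4E away from eIF4G, and the growth-regulating kinase complex mTORC1 relieves this by phosphorylating them.

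The genes described were the protein-coding genes whose symbols begin with EIF1 to EIF6, without the eIF2 kinases (EIF2AK), and with at least 60 reads over the 6 libraries. They numbered 48 of the 29710 genes in the read table, 14 of them EIF3 genes and 34 others. EIF2S3B and EIF4EBP3, with 8 and 1 reads in all, fell below the minimum. All 48 passed the filter on low counts.

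The libraries came from MDA-MB-231 cells, an established triple-negative breast cancer line, and were strand-specific and sequenced in paired-end mode. One group overexpressed FLAG-tagged SRPK2 (3 biological replicates) and the other carried an empty vector (3 biological replicates), so the groups share the line and the presence of a vector. Whether expression was stable or transient, or came from 1 clone, is not given in the sources used here. SRPK2 phosphorylates serine- and arginine-rich splicing factors.

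The SRPK2 libraries held 31140537 to 36908878 reads assigned to genes and the empty-vector libraries 33590410 to 36225361. SRPK2 itself had 213, 248 and 294 CPM (counts scaled to library depth) in SRPK2 libraries, against 37.8, 36.7 and 41.1 CPM in empty-vector libraries, with a log2 fold change of SRPK2 over empty vector of 2.71 (SE 0.10, adjusted p = 2.94e-08 in edgeR). Gene totals do not separate the construct's transcripts from those of the endogenous gene. Of markers known to be high in this line, VIM lay at 593 to 637 FPKM (fragments per kilobase of gene length, scaled to library depth) over the 6 libraries, CD44 at 93.2 to 98.8, KRT8 at 81.6 to 90.8 and KRT18 at 147 to 160. Of markers known to be low in it, PGR reached 0.010 FPKM and CDH1 0.44, while ERBB2 lay at 3.95 to 4.75 and EPCAM at 5.03 to 5.84. Of markers of other cells, PTPRC reached 0.030 FPKM, COL1A1 0.53 and PECAM1 0.54, and CD68 lay at 1.42 to 1.72. Their part in the results was not tested.

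Initiation factor mRNAs were mostly slightly lower in SRPK2 cells than in empty-vector cells. None passed the threshold of an adjusted p of 0.05 in the main edgeR test, with group as the only term. Of the 48 genes, 39 had a log2 fold change below 0, or 81.2%, where 48.8% of all 16515 tested genes did. The values ran from -0.30 for the helicase gene EIF4A1 to 0.20 for EIF3CL, and their median was -0.10, beside 0.00 over all tested genes. In linear terms this is a span of -18.6% to 15.1%. The counts of the genes at both ends are uncertain, as described below. Summed with the overlapping gene SENP3-EIF4A1, EIF4A1 was at -0.13, and EIF3CL is a near-identical copy of EIF3C. The SEs ran from 0.05 to 0.15, beside this median of -0.10, and 45 of the 48 SEs were under 0.1.

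In the edgeR test 0 of the 48 were called, where 0.454% of all tested genes (75) were, 0.0727% as lower and 0.381% as higher. At an unadjusted p under 0.05 there were 14 lower members and 1 higher one, where all tested genes gave 8.10% lower and 9.06% higher. The libraries of the groups did not overlap for 10 lower members, or 20.8%, and for 1 higher member, or 2.08%. Over all tested genes these shares were 8.69% and 11.5%. DESeq2 called 1 member, EIF4A1, lower (0.155% of all genes were called lower and 0.289% higher), and limma-voom called 0. Without SRPK2 replicate 2 edgeR called 7 members, all lower (14.6%, where 5.08% of all tested genes were called lower and 3.29% higher): EIF3D, EIF3I, EIF3K, EIF3M, EIF4A1, EIF4EBP1 and EIF6. The count over all genes was then 1403, and it was 43 and 42 without SRPK2 replicate 1 or 3, and 27, 46 and 33 without empty-vector replicate 1, 2 or 3, with 0 members called in each of these. With no filter on low counts 4 members were called lower (8.33%, where 2.04% of all genes were called lower and 1.31% higher): EIF3K, EIF3M, EIF4A1 and EIF6. Each library holds RNA of many cells, so fewer transcripts per cell and fewer cells making them cannot be told apart. Values are also shares of a library, so a fall of these transcripts and a rise of others cannot be told apart.

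**Figure D1:**
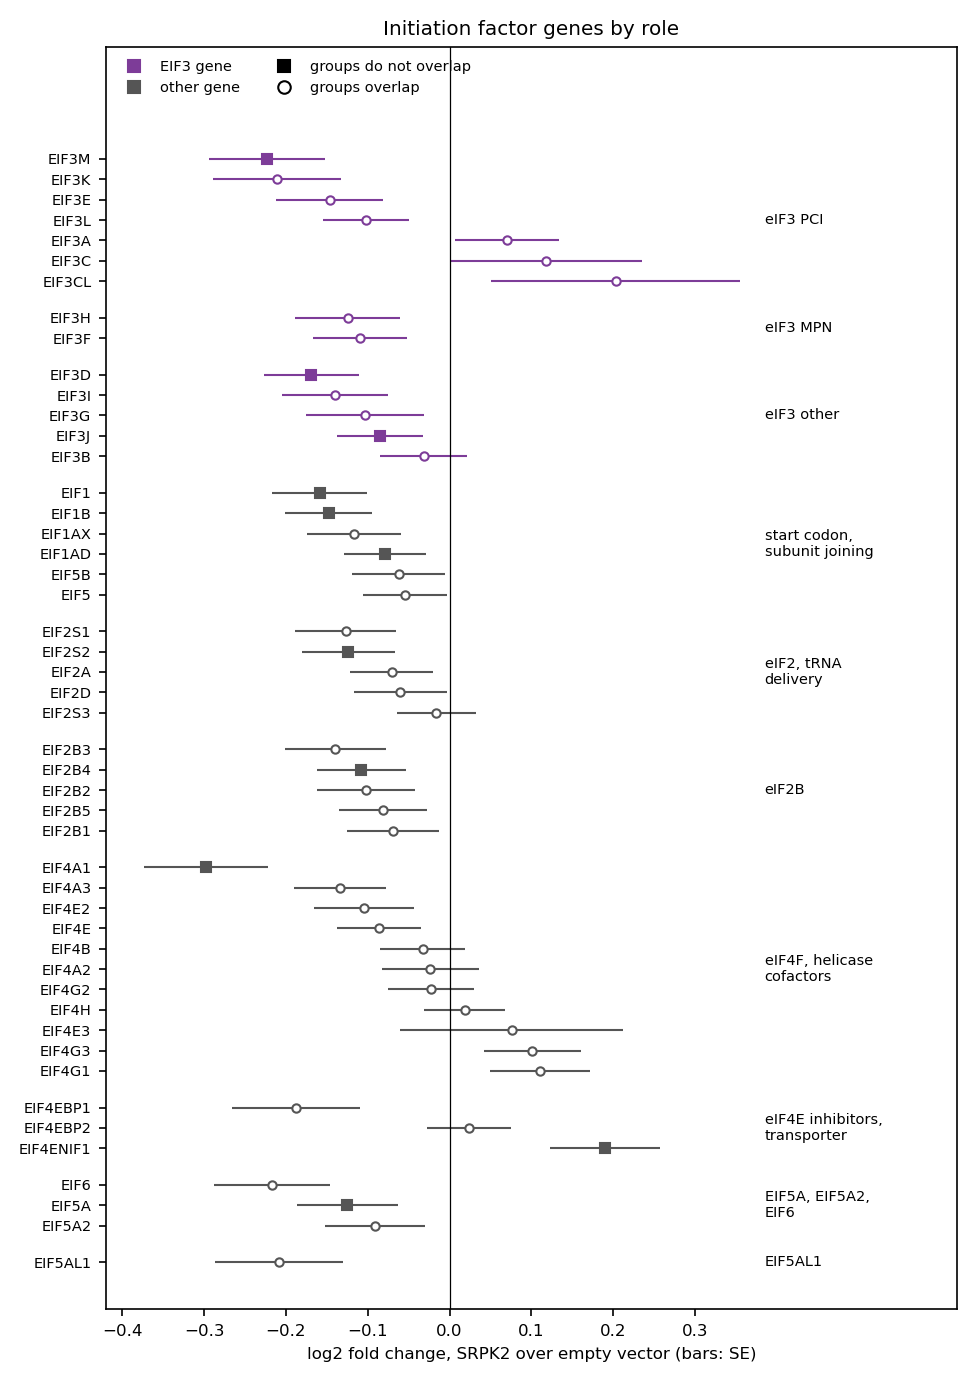
Log2 fold change (x axis, SRPK2 over empty vector, bars show the SE) of the 48 initiation factor genes, grouped by role down the page. Filled squares are genes whose SRPK2 and empty-vector libraries do not overlap and open circles those that do. Most points lie left of 0, from EIF4A1 at -0.30, and the 9 points right of 0 include EIF3CL at 0.20 and EIF4ENIF1 at 0.19.

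The eIF3 genes and the rest lay close together. The 14 EIF3 genes had a median log2 fold change of -0.11 with 11 values below 0, and the 34 others a median of -0.08 with 28 below 0, so the medians differed by -0.02. In single libraries the median of the EIF3 genes, taken as the deviation of log2 CPM from each gene's mean over the 6 libraries, was -0.05, 0.03 and -0.15 with SRPK2 and 0.07, 0.09 and 0.01 with the empty vector. For the others it was -0.05, 0.0014 and -0.07 with SRPK2 and 0.02, 0.09 and 0.01 with the empty vector. SRPK2 replicate 3 was the lowest library for both and empty-vector replicate 2 the highest. SRPK2 replicate 2 stood above empty-vector replicate 3 for the EIF3 genes, so the groups overlapped there, and below all empty-vector libraries for the others.

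The difference between the EIF3 median and the other median was -0.0080, 0.02 and -0.08 in SRPK2 libraries, against 0.05, 0.0024 and -0.0027 in empty-vector libraries. These values overlapped. Ribosomal protein genes, 79 of them tested, stood in the same order of libraries as the EIF3 genes, with a wider spread: -0.15, 0.10 and -0.36 with SRPK2 and 0.11, 0.33 and -0.03 with the empty vector. Their part in the values of the initiation factors was not tested.

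**Figure D2:**
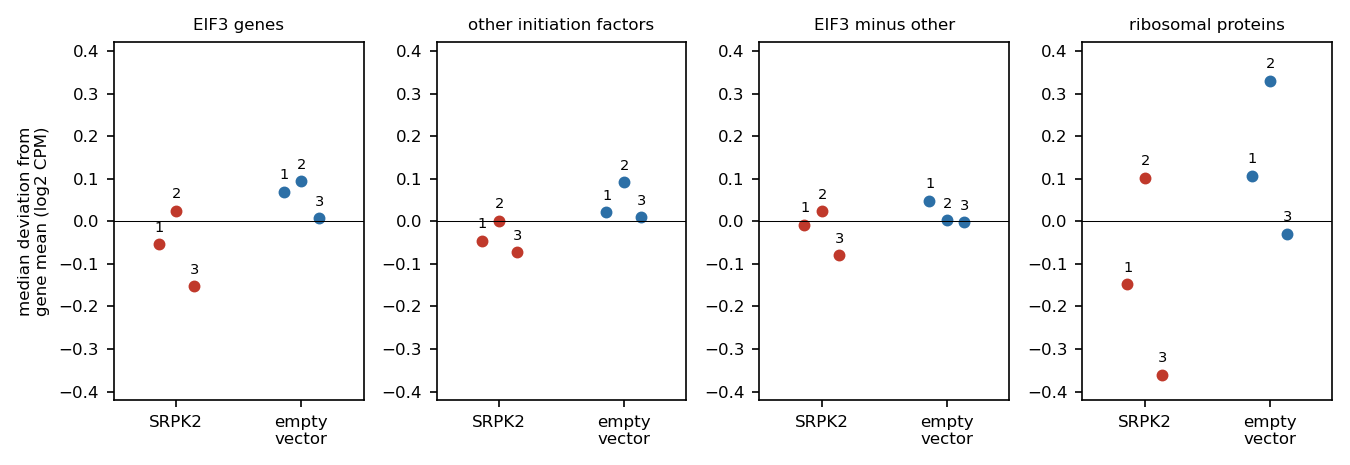
Median deviation of log2 CPM from the gene mean (y axis) in each library for the EIF3 genes, the other initiation factor genes, their difference and the ribosomal protein genes, with SRPK2 libraries at left, empty-vector libraries at right and replicate numbers beside the points. SRPK2 replicate 3 is lowest and empty-vector replicate 2 highest in the panels of the EIF3, other and ribosomal protein genes, at -0.15 and 0.09 for the EIF3 genes.

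Among eIF3 subunits the PCI group, whose shared domain forms most of the structural core, held both the lowest and the highest values. EIF3M, a PCI subunit on chromosome 11 (32583798 to 32606262, plus strand, GRCh38, GENCODE 29), had 295, 331 and 270 CPM in SRPK2 libraries, against 342, 363 and 341 CPM in empty-vector libraries. Every SRPK2 library lay below every empty-vector one, and the log2 fold change was -0.22 (SE 0.07, edgeR adjusted p = 0.182). EIF3K, an accessory PCI subunit on chromosome 19 (38619082 to 38636955, plus strand), had 165, 183 and 148 CPM in SRPK2 libraries, against 196, 204 and 173 CPM in empty-vector libraries. SRPK2 replicate 2 stood above empty-vector replicate 3, and the log2 fold change was -0.21 (SE 0.08, edgeR adjusted p = 0.224). EIF3E and EIF3L, also PCI subunits, had -0.15 and -0.10, with groups that overlapped.

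EIF3A, the largest PCI subunit, stood on the other side of 0, with 343, 334 and 377 CPM in SRPK2 libraries, against 328, 318 and 358 CPM in empty-vector libraries (log2 fold change 0.07, SE 0.06, edgeR adjusted p = 0.580). The groups overlapped. EIF3C had 14.8, 18.9 and 19.3 CPM in SRPK2 libraries, against 18, 13.3 and 17.6 CPM in empty-vector libraries (0.12, SE 0.12, edgeR adjusted p = 0.620), and it was -0.0081 without empty-vector replicate 2. EIF3CL had 2.59, 2.83 and 3.05 CPM in SRPK2 libraries, against 2.73, 2.68 and 1.99 CPM in empty-vector libraries (0.20, SE 0.15, edgeR adjusted p = 0.501). The last 2 genes are near-identical copies on chromosome 16 whose reads the counting can split or drop, so both values are uncertain. Their summed level was 17.4, 21.7 and 22.4 CPM in SRPK2 libraries, against 20.7, 16 and 19.6 CPM in empty-vector libraries (0.13, SE 0.11, edgeR adjusted p = 0.540).

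The MPN subunits EIF3H and EIF3F, which pair within the core, had log2 fold changes of -0.12 (SE 0.06) and -0.11 (SE 0.06). EIF3H, the more abundant per length, had 321, 346 and 296 CPM in SRPK2 libraries, against 352, 366 and 332 CPM in empty-vector libraries. Only SRPK2 replicate 2 reached the range of the empty vector.

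All 5 remaining subunits had values below 0. EIF3D, which can itself bind the cap of some mRNAs, had 217, 232 and 203 CPM in SRPK2 libraries, against 251, 246 and 237 CPM in empty-vector libraries. The groups did not overlap (log2 fold change -0.17, SE 0.06, edgeR adjusted p = 0.199). EIF3I, a propeller-shaped subunit, had -0.14, the RNA-binding subunit EIF3G -0.10, the loosely attached EIF3J -0.09 and the scaffold subunit EIF3B -0.03. Of these 4, EIF3J alone had groups that did not overlap, at 122, 123 and 111 CPM in SRPK2 libraries against 126, 125 and 127 CPM in empty-vector libraries. Scaling by library size alone put EIF3B at 0.0047.

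**Figure D3:**
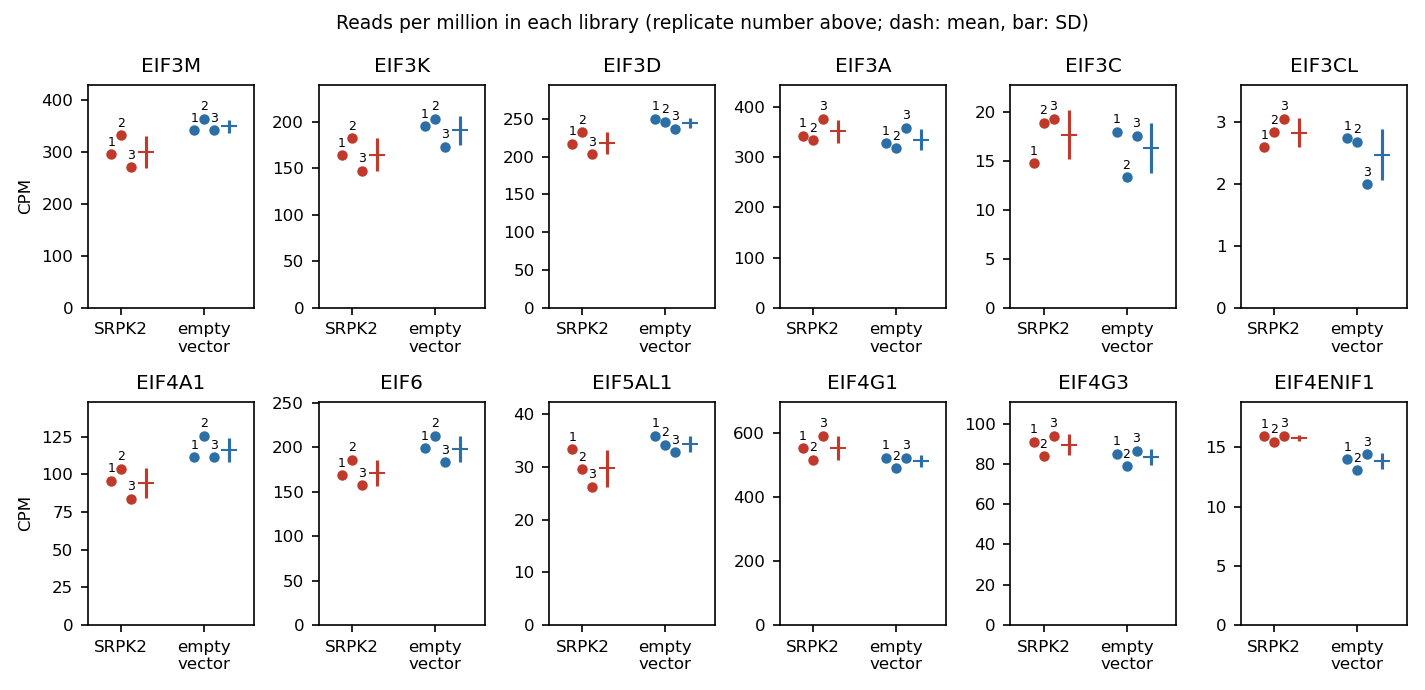
CPM (y axis, from 0) in each SRPK2 library (left) and empty-vector library (right) for the 3 lowest and 3 highest EIF3 genes (upper row) and other genes (lower row) by log2 fold change. Numbers above points are replicates, dashes means and bars SDs. EIF3M, EIF3D, EIF4A1 and EIF4ENIF1 have groups that do not overlap, and the SRPK2 means of EIF3M and EIF4A1, 299 and 94.5 CPM, lie below the empty-vector means of 349 and 116 CPM.

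Subunits of a complex can be compared in level only per length, and here the length behind the deposited FPKM mattered. The length that the reads and FPKM imply was 41663 bases for EIF3E, 10766 for EIF3I and 16700 for EIF3F. The exons of these genes in GENCODE 29 cover 6005, 1725 and 9431 bases. The implied length was 6.94, 6.24 and 1.77 times the exon length, where its median over 11411 genes with a mean of at least 1 FPKM was 1.10 times and 2.93% of genes lay above 2. EIF4H (2.01 times) and EIF2A (1.58 times) were the other members above 1.5. FPKM values of these 5 genes are therefore low relative to other genes. EIF4E went the other way, with an implied length of 5486 bases against 14067 exon bases. That is 0.39 times, where 0.0964% of genes lay below 0.5, so its FPKM is high relative to other genes. The length does not enter the edgeR fold changes, but it does enter a correction for gene length: EIF3E was -0.23, EIF3F -0.18 and EIF3I -0.20 with the implied length, and -0.10, -0.18 and -0.09 with that of the principal transcript.

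On the GENCODE exon length most eIF3 subunit mRNAs lay within a narrow band. The 9 subunits other than EIF3C, EIF3CL, EIF3E, EIF3F and EIF3I ranged from 37.5 to 59.5 CPM per kilobase in SRPK2 cells and from 38.9 to 67.3 in empty-vector cells. EIF3I had 193 ± 11.5 in SRPK2 cells and 208 ± 5.84 in empty-vector cells (SD, n = 3 each), and EIF3E had 76.6 ± 3.69 in SRPK2 cells and 82.8 ± 3.86 in empty-vector cells (SD, n = 3 each). In deposited FPKM the same genes stood at 31.1 and 11.1 in SRPK2 cells and at 33.4 and 11.95 in empty-vector cells, at the lower end of the family. EIF3C, at 2.56 ± 0.39 in SRPK2 cells and 2.31 ± 0.40 in empty-vector cells on the GENCODE length (SD, n = 3 each), stood below these subunits, and reads shared with its copy can be lost or split.

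**Figure D4:**
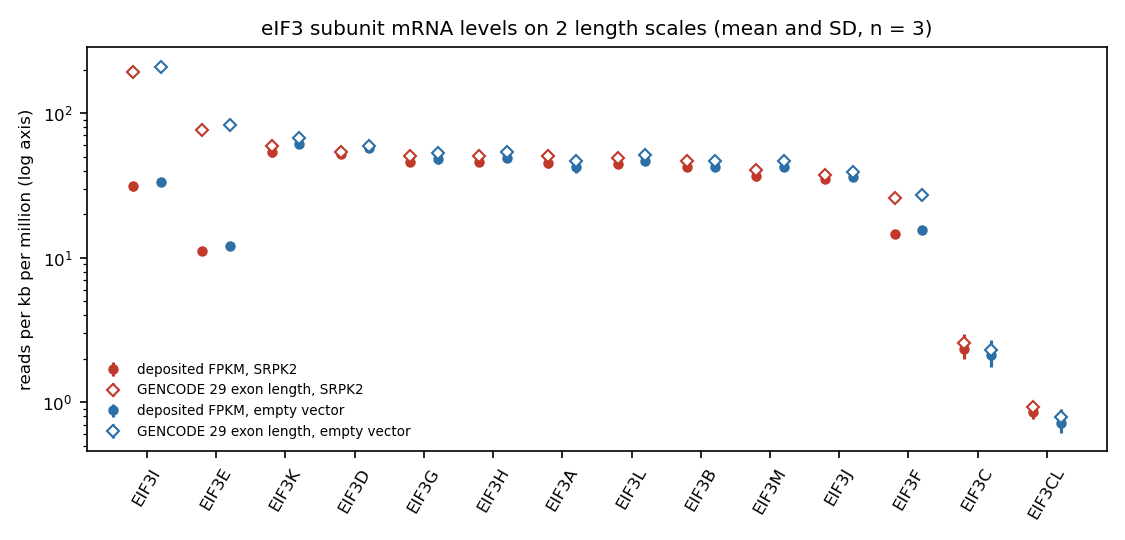
Levels of the 14 EIF3 genes in CPM per kilobase (log axis, mean and SD, n = 3), as deposited FPKM (filled circles) and with the GENCODE 29 exon length (open diamonds), for SRPK2 cells (left of each pair) and empty-vector cells. The scales differ most for EIF3E (11.1 against 76.6 in SRPK2 cells) and EIF3I (31.1 against 193).

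Several eIF3 mRNAs are known to begin with a terminal oligopyrimidine tract, the 5′ feature of ribosomal protein mRNAs through which mTORC1 controls their translation. The sequences around the annotated starts are shown for 8 EIF3 genes from the RefSeq promoter table (GRCh38.p14), the other EIF3 genes being not analysed here, since this is a feature that eIF3 and ribosomal protein mRNAs share. Each line gives 15 bases before the start and 15 from it on, 5′ to 3′ on the transcribed strand, with the pyrimidine run in capitals.
EIF3B (chr7:2354812-2354841, plus strand): ccccgtcgcacgcacatggctgggctgtag
EIF3C (chr16:28688543-28688572, plus strand): ctctgtcccaCCCCCgtggcaggcagccct
EIF3D (chr22:36529152-36529181, minus strand): gcgcgcgcatgtttCCTCTTTTCCTggttt
EIF3F (chr11:7987322-7987351, plus strand): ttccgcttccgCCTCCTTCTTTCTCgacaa
EIF3I (chr1:32222392-32222421, plus strand): accttttccggtcttactcacgttgcggcc
EIF3J (chr15:44537132-44537161, plus strand): cacctccgccgtgctaaCTCCTCgctagct
EIF3K (chr19:38619173-38619202, plus strand): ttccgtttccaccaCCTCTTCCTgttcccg
EIF3M (chr11:32583816-32583845, plus strand): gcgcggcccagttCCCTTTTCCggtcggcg

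The run searched for was a C lying within 5 bases of the annotated start and followed by at least 4 letters that are each C or T, on the transcribed strand only. It was present at 6 of the 8 EIF3 starts (75%) and at 12 of 47 starts of the other members (25.5%). Over all 35116 promoters of the table the share was 21.1%, and over 78 starts of ribosomal protein genes 74.4%. Some genes outside EIF3 have several starts, which lowers their share per start. Counted per gene, 6 of 8 EIF3 genes (75%) and 12 of 32 other members (37.5%) had the run at a start. The share was 29.4% of tested protein-coding genes and 85.7% of ribosomal protein genes. The 18 initiation factor genes with a run at a start had a median log2 fold change of -0.07 and the 22 without one a median of -0.10. EIF3M and EIF3K, the lowest EIF3 genes, carried the run, and so did EIF3C at 0.12, while EIF3I at -0.14 and EIF4A1 at -0.30 did not. The runs of EIF3C, EIF1, EIF5 and EIF5A2 lay wholly before the annotated start at which they were found. They are counted above but are not part of a transcript begun at that start. All runs are matches of letters at annotated starts, which can lie some bases from the starts used in these cells.

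The genes grouped here under start codon selection and subunit joining all had values below 0, with 0 of 6 called. Whether EIF1AD acts in these steps was not tested. EIF1, the guardian of start codon fidelity and with 197066 reads the most deeply counted member, had 915, 927 and 839 CPM in SRPK2 libraries, against 994, 1028 and 971 CPM in empty-vector libraries. The groups did not overlap (log2 fold change -0.16, SE 0.06, edgeR adjusted p = 0.220). Its close copy EIF1B had -0.15 and EIF1AD -0.08, also without overlap. EIF1AX, which works with EIF1 in scanning, had -0.12, the subunit-joining GTPase EIF5B -0.06 and EIF5, which triggers GTP hydrolysis by eIF2, -0.05, each with overlap.

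None of the 5 genes of eIF2 and tRNA delivery was called, and all had values below 0. EIF2S1, the α subunit that stress kinases phosphorylate, had a log2 fold change of -0.13 (SE 0.06). EIF2S2, the β subunit, had 400, 414 and 374 CPM in SRPK2 libraries, against 421, 449 and 424 CPM in empty-vector libraries. Its groups did not overlap (-0.12, SE 0.06, edgeR adjusted p = 0.288). EIF2S3, the GTP-binding γ subunit, had 299, 291 and 300 CPM in SRPK2 libraries, against 298, 301 and 302 CPM in empty-vector libraries (-0.02, SE 0.05), and 0.02 with libraries scaled by size alone. The differences between these subunits were not tested.

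Per length, EIF2S2 was the most abundant eIF2 mRNA, at 142 ± 4.52 FPKM in SRPK2 cells and 151 ± 3.84 FPKM in empty-vector cells (SD, n = 3 each). EIF2S3 followed with 66.8 ± 2.24 FPKM in SRPK2 cells and 65.9 ± 1.48 FPKM in empty-vector cells, and EIF2S1 with 45.8 ± 1.98 FPKM in SRPK2 cells and 48.8 ± 2.17 FPKM in empty-vector cells (SD, n = 3 each). The bands of the 3 subunits did not touch. EIF2A and EIF2D, which have been linked to other routes of tRNA delivery, had log2 fold changes of -0.07 and -0.06.

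The eIF2B exchange factor, which reloads eIF2 with GTP, had all 5 subunit genes below 0, from -0.14 for EIF2B3 to -0.07 for EIF2B1, and 0 called. EIF2B1, the most abundant per length, had 89.2, 89.5 and 80.5 CPM in SRPK2 libraries, against 88.6, 94.2 and 89.1 CPM in empty-vector libraries. These overlapped, and of the 5 genes EIF2B4 alone had groups that did not. Its log2 fold change was -0.11 (SE 0.05, edgeR adjusted p = 0.327).

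Of eIF4F and its helicase cofactors 7 of 11 had values below 0 and 0 were called. EIF4A1, the main helicase, on chromosome 17 (7572706 to 7579005, plus strand), had 95.9, 104 and 83.9 CPM in SRPK2 libraries, against 112, 126 and 111 CPM in empty-vector libraries. Every SRPK2 library lay below every empty-vector one, and its log2 fold change was the lowest of the 48, at -0.30 (SE 0.08, edgeR adjusted p = 0.129). These reads were a small part of what the locus gave. The readthrough gene SENP3-EIF4A1, which overlaps its exons, held 1470, 1537 and 1391 CPM in SRPK2 libraries, against 1603, 1634 and 1526 CPM in empty-vector libraries.

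EIF4A1's own count was 5.69% to 7.14% of the sum of both genes. The sum was 1566, 1641 and 1475 CPM in SRPK2 libraries, against 1715, 1760 and 1638 CPM in empty-vector libraries. SRPK2 replicate 2 now reached the lowest empty-vector library, and the log2 fold change was -0.13 (SE 0.06, edgeR adjusted p = 0.297). Which transcripts carried these reads cannot be told from gene totals, and the count of EIF4A1 is uncertain. Its rank among the members in reads and in abundance is therefore uncertain too. The paralog EIF4A2 had -0.02, and EIF4A3, the related helicase of the exon junction complex, -0.13.

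EIF4G1, the main scaffold, had 552, 516 and 591 CPM in SRPK2 libraries, against 523, 491 and 523 CPM in empty-vector libraries (log2 fold change 0.11, SE 0.06, edgeR adjusted p = 0.362). Its paralog EIF4G3 had 91.0, 83.8 and 94.0 CPM in SRPK2 libraries, against 85.1, 78.9 and 86.6 CPM in empty-vector libraries (0.10, SE 0.06, edgeR adjusted p = 0.381). In both genes SRPK2 replicate 2 lay within the range of the empty vector. EIF4G2, a relative that cannot bind eIF4E and with the highest deposited FPKM of the eIF4F group, had 803, 827 and 830 CPM in SRPK2 libraries, against 821, 822 and 857 CPM in empty-vector libraries (-0.02, SE 0.05). On the GENCODE exon length it had 95.9 CPM per kilobase in SRPK2 cells and 95.0 in empty-vector cells. There EIF4H stood higher, at 137 and 132.

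The cap-binding gene EIF4E had a log2 fold change of -0.09 and its repressor-type relative EIF4E2 -0.11. EIF4E3 had 0.08 (SE 0.14) at 3.45 to 4.77 CPM in SRPK2 libraries and 3.64 to 4.15 CPM in empty-vector libraries. The helicase cofactors EIF4B and EIF4H had -0.03 and 0.02. With libraries scaled by size alone EIF4A2, EIF4B and EIF4G2 were at 0.01, 0.0035 and 0.01, and EIF4H was at -0.01 after a correction for gene length, so the direction of these 4 depended on the scaling.

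The regulators of eIF4E spread on both sides of 0. EIF4EBP1, which encodes the 4E-BP1 inhibitor, had 57.6, 64.6 and 52.9 CPM in SRPK2 libraries, against 66.6, 72.1 and 60.8 CPM in empty-vector libraries. SRPK2 replicate 2 stood above empty-vector replicate 3 (log2 fold change -0.19, SE 0.08, edgeR adjusted p = 0.249). EIF4EBP2 had 0.02 (SE 0.05) and was -0.02 after a correction for gene length. EIF4ENIF1, the transporter of eIF4E, on chromosome 22 (31436977 to 31496108, minus strand), had 15.9, 15.5 and 16 CPM in SRPK2 libraries, against 14, 13.1 and 14.4 CPM in empty-vector libraries. It was the single member whose SRPK2 libraries all lay above the empty-vector ones (0.19, SE 0.07, edgeR adjusted p = 0.208).

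EIF6, which keeps the ribosomal subunits apart and takes part in building the large one, had 168, 186 and 157 CPM in SRPK2 libraries, against 199, 213 and 183 CPM in empty-vector libraries. SRPK2 replicate 2 stood just above empty-vector replicate 3, and the log2 fold change was -0.22 (SE 0.07, edgeR adjusted p = 0.192). EIF5A, a hypusine-bearing factor that acts mainly in elongation, had 829, 838 and 739 CPM in SRPK2 libraries, against 881, 900 and 842 CPM in empty-vector libraries. It was the most abundant member per length where EIF4A1 is counted without SENP3-EIF4A1. Its groups did not overlap (-0.12, SE 0.06, edgeR adjusted p = 0.319). EIF5AL1, a copy of EIF5A whose reads can be taken from it, had 33.3, 29.6 and 26.3 CPM in SRPK2 libraries, against 35.9, 34.2 and 32.8 CPM in empty-vector libraries (-0.21, SE 0.08, edgeR adjusted p = 0.226), and EIF5A2 had -0.09.

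Log2 fold changes of initiation factor genes went with gene length, as they did over all genes. Genes were divided into 3 equal classes by the length behind the deposited FPKM, at 3585 and 6902 bases. The 8 members in the short class had a median of -0.14 beside -0.07 for all tested genes there, the 22 in the middle class -0.10 beside 0.00092, and the 18 in the long class -0.06 beside 0.05. The median of the members lay below that of all tested genes in each of the 3 classes. As a description across genes, which are not independent replicates and share libraries, Spearman's rho was 0.43 for the 48 members and 0.29 for 16515 genes. It was 0.75 for the 34 other members and -0.15 for the 14 EIF3 genes, where the lengths of EIF3E, EIF3I and EIF3F are in doubt. Among the other members the lengths of EIF4E, EIF4H and EIF2A are in doubt too. With GENCODE 29 exon lengths rho was 0.61 for the other members and 0.11 for the EIF3 genes.

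Correcting each library for gene length left 41 of the 48 members below 0, where 54.0% of all tested genes were, with medians of -0.14 for the EIF3 genes and -0.10 for the others, and 0 members called. This used the implied lengths. With principal transcript lengths, an alternative chosen after seeing the data, 40 members were below 0 and 0 were called, the medians were -0.09 and -0.08, and the EIF3 median less the other was -0.0032, where the implied lengths gave -0.03.

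**Figure D5:**
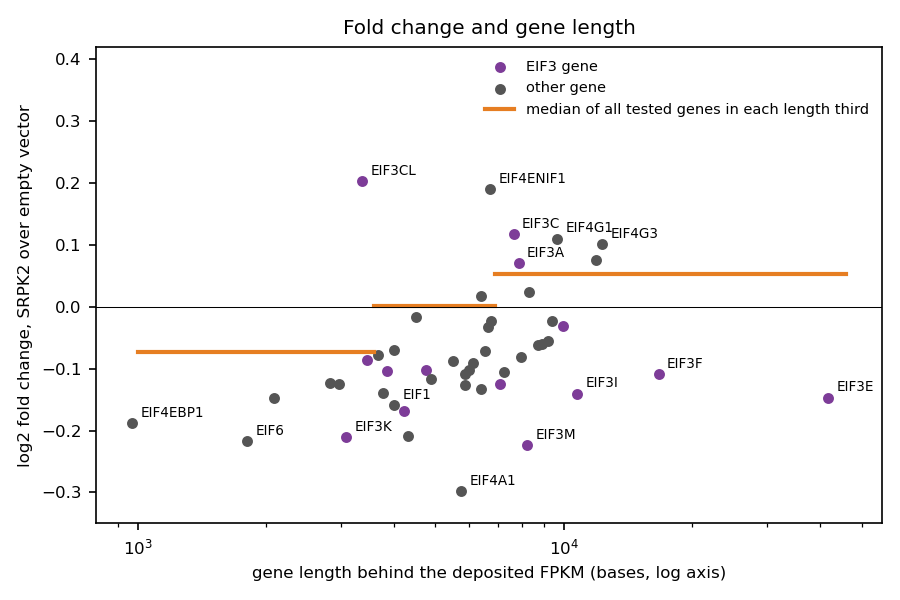
Log2 fold change (y axis, SRPK2 over empty vector) against the gene length behind the deposited FPKM (x axis, log scale) for the 48 members. Orange lines are the medians of all tested genes in each length class, at -0.07, 0.00092 and 0.05, and 7 of 8, 20 of 22 and 12 of 18 members in these classes lie below 0.

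Other genes of the pathway held no called gene either, where 0.454% of all tested genes were called. Of the 8 genes of the eIF2 kinase and phosphatase arm 4 were below 0, with a median of -0.01. EIF2AK2, which encodes the RNA-activated kinase PKR, was highest at 0.15 (SE 0.06, edgeR adjusted p = 0.218), with no overlap of the groups, and DDIT3, a target of the stress response, was lowest at -0.16 (SE 0.10). ATF4, whose mRNA is translated when eIF2 is phosphorylated, had -0.12 (SE 0.06). The 15 poly(A)-binding and cap-side regulators had a median of -0.06. Groups did not overlap for 5 lower genes and 1 higher gene of these 15, where the shares over all tested genes were 8.69% and 11.5%. One of the 5 was the poly(A)-binding protein gene PABPC4, at -0.13 (SE 0.05).

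The 9 genes of the mTORC1 arm had a median of -0.02, from -0.10 for MLST8, a subunit of the complex, to 0.21 for its upstream inhibitor TSC2 (SE 0.08, edgeR adjusted p = 0.240). The groups of TSC2 overlapped. TSC1, at 0.14 (SE 0.05), was the 1 gene of the arm without overlap, where 11.5% of all tested genes were higher without overlap. The 13 elongation and termination genes had a median of -0.06 with 11 below 0. EEF1B2, an exchange factor subunit, was lowest at -0.23 (SE 0.10), and the elongation factor EEF2 had 0.0068.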

How the data were processed

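RNA was extracted with TRIZOL, DNase treated and sequenced from both ends, per the labels' protocols. The submitters' processing notes name bcl2fastq, FastQC, HISAT2 and GRCh38. No counter, strand setting or annotation release is given in the sources used here. The authors deposited whole-number read counts per gene and FPKM values rounded to 2 decimals. Libraries were grouped by their titles, and p-values measure the spread between these replicates.

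For 16515 genes the counts entered the quasi-likelihood test of edgeR 4.0.16 (R 4.3.3, TMM, filterByExpr, glmQLFit and glmQLFTest, two-sided, group as the only term, Benjamini-Hochberg over all tested genes). Each SE is the size of the log2 fold change divided by the root of its F statistic. CPM values are TMM scaled, while levels per kilobase of GENCODE exon length use library size alone. The alternatives used DESeq2 1.42.0, limma 3.58.1, other scalings and filters, FPKM plus 1 or 0.1, length corrections, a replicate block and libraries left out. Identifiers were matched without version to GENCODE 29 (28804 of 29710 genes), and 40 of 48 members to RefSeq start windows. Scripts were tested on simulated data. Members and lists were chosen with earlier results of these data known. Named with a value in each library were the 3 lowest and 3 highest log2 fold changes among EIF3 and other members. So was the gene of highest mean deposited FPKM per role, and others were added after their values were seen. Replicates differed by more than sampling noise, with chi-squares of 4.44 to 15.2 per degree of freedom.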

Additional observations from a re-analysis of the deposited data

How the results depend on the processing

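The EIF3 median stayed between -0.14 and -0.07, the other median between -0.10 and -0.04 and their difference between -0.03 and -0.0032 in every setting that kept all libraries. With 1 library left out they ranged from -0.15 to -0.07, from -0.10 to -0.06 and from -0.05 to 0.0094. Of the 48 members 39 kept their sign in every setting that tested them. Genes called over all genes were 997 with no filter on low counts, 132 with DESeq2, 18 with unfiltered FPKM plus 1 and 124 with a correction for principal transcript length, added after the data were seen, and 27 to 1403 with 1 library left out. Members called were 4 with no filter, 1 with DESeq2 and 0 to 7 with 1 library left out. Causes were not tested.

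The labels do not say that replicate numbers pair the libraries, and the correlations of same-numbered libraries, 0.08, 0.23 and 0.17, were not all above 0.1. Each library correlated best with its own number, a hint of pairing from the data and not from the design. With the replicate block 3899 genes and 30 members were called (26 lower, 4 higher, where 13.0% and 10.6% of all tested genes were). With the gene length correction added 3336 of the 16515 tested genes were called, 2279 lower and 1057 higher. Of the 48 members 32, or 66.7%, were then called, all lower.

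Signs changed for small values. EIF2S3, EIF3B, EIF4A2, EIF4B and EIF4G2 were 0.020, 0.0047, 0.013, 0.0035 and 0.013 with library size alone, 0.019, 0.0045, 0.011, 0.0029 and 0.013 with FPKM plus 1 (filtered or not), and 0.020, 0.0046, 0.011, 0.0029 and 0.014 with FPKM plus 0.1. EIF4EBP2 and EIF4H were -0.024 and -0.013 after the gene length correction, with or without the replicate block. EIF4A2, EIF4E3 and EIF4EBP2 were 0.00052, -0.0071 and -0.045 after the principal transcript length correction. With 1 library left out EIF4A2 ranged from -0.061 to 0.023, EIF4E3 from -0.076 to 0.17, EIF4EBP2 from -0.0069 to 0.054 and EIF3C from -0.0081 to 0.22. Depth limits EIF3CL, EIF4E3 and EIF4ENIF1 most, with 553, 825 and 3096 reads in all.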

Other observations

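Pseudogenes of initiation factors lay outside the member rule. Of 28 listed, 8 had enough reads to be tested and 1 was called higher, where 0.381% of all tested genes were. This was EIF3FP3, a processed copy of the eIF3 subunit gene EIF3F. It had 92, 92 and 84 reads in SRPK2 libraries, against 41, 45 and 35 reads in empty-vector libraries (log2 fold change 1.14, SE 0.19, edgeR adjusted p = 0.0187). Its parent EIF3F had 251, 249 and 224 CPM in SRPK2 libraries, against 263, 267 and 251 CPM in empty-vector libraries. The call was lost without SRPK2 replicate 1 or empty-vector replicate 1 or 3 (log2 fold changes of 1.04, 1.14 and 1.01, edgeR adjusted p = 0.0929, 0.124 and 0.0920) and with unfiltered FPKM plus 1 (limma adjusted p = 0.170). Over the settings that tested it, adjusted p ranged from 1.72e-07 (edgeR, no filter on low counts) to 0.170 (limma). A filter of a mean CPM of at least 5 left EIF3FP3 untested. Reads of the copy and its parent can be exchanged in counting. EIF5AP4, a copy of EIF5A, had 77 reads in empty-vector replicate 1 and 12 to 21 in the other 5 libraries.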
